A study of Mus musculus with 10 samples.

Results

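Cytosolic ribosomal proteins are the proteins that, together with ribosomal RNA, build the large and the small subunit of the ribosome. Their genes were taken from the raw count table by name alone. The rule kept every symbol made of Rpl or Rps and a number, with or without an ending such as a, l, x or y, added Rpsa, Rplp0, Rplp1 and Rplp2, and left out the Rps6k kinases. It found 85 of 23284 genes, 52 of the large subunit and 33 of the small subunit, and 83 of them had enough counts to be tested.

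The cells were macrophages grown from the bone marrow of C57BL/6J mice over 6 days in medium with M-CSF, the growth factor that turns marrow cells into macrophages. They were left untreated (0 h) or were given Kdo2-lipid A, the lipid core of bacterial lipopolysaccharide that activates Toll-like receptor 4, for 1 h or 2 h at a dose of 0.03 nM or 10 nM. Each of these 5 groups had 2 libraries of polyadenylated RNA, 1 from each of 2 experiments, and the comparison asks how a low and a high dose change the macrophage's RNA over time. All groups shared the strain, the M-CSF culture and its length, and no untreated cells were taken at 1 h or 2 h, so time in culture after the start and the treatment cannot be told apart. The labels say nothing of how many mice gave the marrow or whether the experiments used different mice, so p-values measure the spread between these libraries, which may be technical. In bulk RNA, a change in the RNA of each cell and a change in which cells were present cannot be told apart.

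The ribosome needs its proteins in matched amounts, and their genes are among the most strongly transcribed in most cells. Their mRNAs typically begin with a run of pyrimidines at the cap, the 5′ terminal oligopyrimidine (TOP) motif, through which mTOR and the RNA-binding protein Larp1 control how much of the mRNA is translated and stored. Macrophages that sense lipopolysaccharide switch on a large programme of cytokine and immune genes, and these take up a growing share of the cell's mRNA.

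The RefSeq promoter table (build GRCm38.p6) held 64 of the 85 genes. A run of at least 8 C or T bases on the coding strand, within 50 bases of an annotated start, was present for 53 of these 64 genes (82.8%), against 39.3% of all 27025 genes of the table. The letters CCGGAAG, the core of an Ets-type binding motif, were present on either strand of the 300-base promoter for 26 genes (40.6%), against 9.93% of all genes. TATAAA was found for 7 genes (10.9%) against 15.7%, CACGTG for 6 (9.4%) against 8.09%, and TGACTCA for 2 (3.1%) against 5.95%, each on either strand. Motifs were searched separately and may overlap. These matches describe letters in the windows and are not binding sites.

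The windows below run from 25 bases before to 20 bases after the annotated start and belong to genes that the results turn on. Capitals mark the longest C or T run where it had at least 8 bases and reached the window. Rpl24, Rps13, Rps27, Rps25, Rps6 and Rplp2 are shown because they rose at 10 nM and 2 h, Rpl13a because it did not pass the test there, and Rps27l and Rpl22l1 because they are paralogs of Rps27 and Rpl22.
Rpl24, chr16:55966250-55966294, plus strand: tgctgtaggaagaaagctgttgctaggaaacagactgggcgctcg
Rps13, chr7:116334171-116334215, minus strand: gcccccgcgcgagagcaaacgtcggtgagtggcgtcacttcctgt
Rps27, chr3:90213629-90213673, minus strand: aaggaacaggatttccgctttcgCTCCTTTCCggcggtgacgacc
Rps25, chr9:44407689-44407733, plus strand: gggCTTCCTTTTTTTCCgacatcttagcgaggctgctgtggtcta
Rps6, chr4:86857348-86857392, minus strand: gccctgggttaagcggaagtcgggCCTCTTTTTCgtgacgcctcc
Rpl13a, chr7:45128726-45128770, minus strand: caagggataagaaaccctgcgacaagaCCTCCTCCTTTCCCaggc
Rplp2, chr7:141447626-141447670, plus strand: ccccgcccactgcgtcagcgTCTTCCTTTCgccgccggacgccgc
Rps27l, chr9:66946061-66946105, plus strand: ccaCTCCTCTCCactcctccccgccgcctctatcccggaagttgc
Rpl22l1, chr3:28805483-28805527, plus strand: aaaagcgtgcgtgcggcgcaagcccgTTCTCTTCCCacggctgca
In Rps27, Rps6 and Rplp2 the run lay across the annotated start, and in Rpl24 and Rps13 no run of 8 lay within 50 bases of it. An annotated start is a position in a database, and where transcription began in these cells was not measured.

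The libraries held between 33179599 and 42167096 counts. The 8 macrophage markers were present throughout, with a summed level of 23800 to 32500 CPM (counts scaled to a common library size), while lists of 6 erythroid, 5 mast cell, 6 B cell, 8 dendritic cell and 8 T and NK cell genes summed to 0.752 to 2.7, 2.42 to 4.71, 5.13 to 9.84, 29.2 to 48.2 and 31.9 to 39.2 CPM. Gzma, a killer-cell gene, was at 0 in every library. A list of 12 neutrophil genes summed to 96.1 and 100 CPM in the untreated libraries and to 180 and 182 CPM at 10 nM and 2 h, with its lowest gene, the granule protease Elane, at 0.0657 to 0.317 CPM. In that comparison 4 of the 12 rose and 0 fell by edgeR's test, beside 28.6% and 30.1% of all tested genes. Among the 4 were the receptor gene Csf3r by 0.99, S100a9 by 0.78 and Ngp by 0.77. A list of 12 stromal genes summed to 51.8 to 77.6 CPM in experiment 1 and 92.3 to 134 CPM in experiment 2. In the same comparison 5 of 8 dendritic cell genes and 2 of 11 tested stromal genes rose, and 0 fell. Of 8 macrophage genes 2 rose and 1 fell. In the B cell list 1 of 4 tested genes fell, as did the 1 tested erythroid gene. The part of these genes in the results below was not tested.

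In untreated macrophages the ribosomal protein genes stood far above the typical gene. Their median level was 410.5 RPKM (CPM on TMM-scaled totals, per kilobase of exon), against 6.874 RPKM for all 12918 tested genes, and 77 of the 83 tested genes were above 100 RPKM. The highest were Rplp1, a protein of the acidic stalk that recruits elongation factors, at 1180 ± 100 RPKM (SD, n = 2), Rps14 at 948 ± 78.0, Rpl41 at 940 ± 109, Rps9 at 877 ± 76.3 and Rpl10 at 861 ± 70.4. Rplp1 lay above Rps14 by more than either SD, while neighbors in the order from Rps14 to Rpl10 lay within their SDs of each other. The genes are short, with a median exonic length of 710 bases against 2814 for all tested genes. The low level per length of Rps15a, 30.1 ± 2.94 RPKM, goes with a gene model of 5134 bases, the longest of the set.

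**Figure D1:**
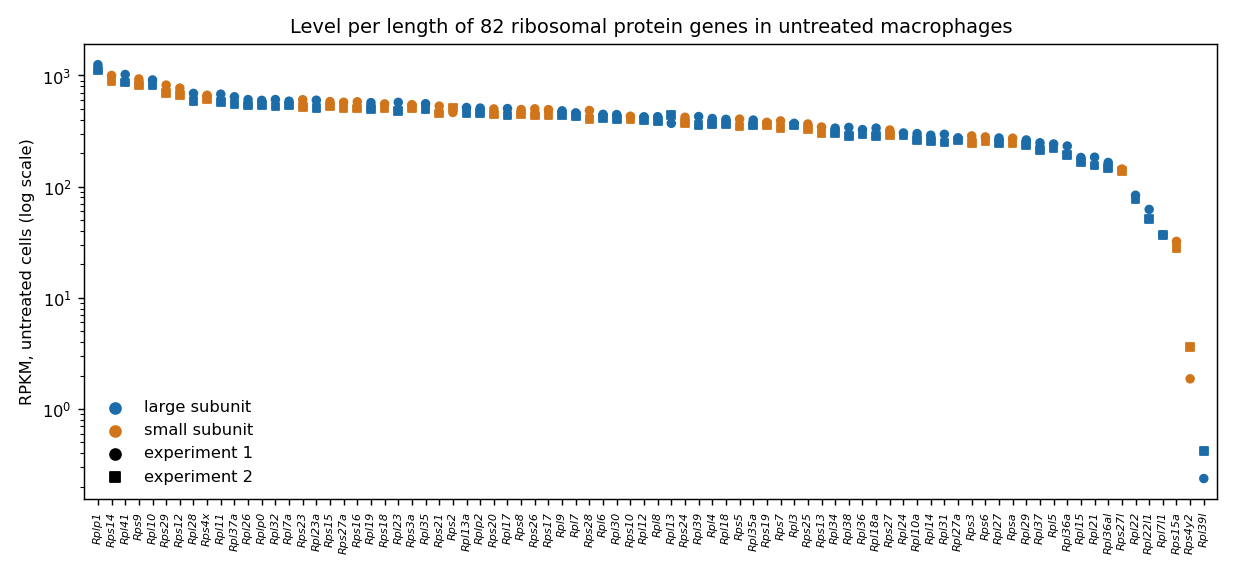
Level per exonic length (RPKM, log scale) of 82 of the 83 tested ribosomal protein genes in the 2 untreated libraries, ordered by their mean, with color for the subunit and shape for the experiment. Most genes sit between 100 and 1180 RPKM, and Rps4y2 and Rpl39l fall far below the rest.

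Paralogs of core ribosomal proteins were expressed at lower levels than the genes they resemble. Per length, Rps27l stood at 141 ± 4.58 RPKM beside Rps27 at 308 ± 20.8, and Rpl36al at 157 ± 11.8 beside Rpl36a at 213 ± 27.8. Rpl22l1 stood at 56.7 ± 8.04 RPKM beside Rpl22 at 80.1 ± 5.12, and Rpl7l1 at 36.8 ± 0.163 beside Rpl7 at 447 ± 19.4 (SD, n = 2 throughout). Each of these 4 paralogs lay below its relative by more than either SD, with no test made. Paralogs known from particular tissues were near or at the floor. Rpl39l, known from testis, stood at 0.328 ± 0.129 RPKM beside Rpl39 at 393 ± 47.1, and Rps4y2, a copy of Rps4x with 1 exon, at 2.74 ± 1.23 beside Rps4x at 638 ± 37.1. Rpl10l, another testis paralog, had 0 counts in all 10 libraries, and Rpl3l, known from heart and skeletal muscle, had 6 counts in all, 2 in each 10 nM 1 h library and 2 in the experiment 2 library at 10 nM and 2 h. Reads of processed copies that match a ribosomal protein gene closely could be counted for either, so the levels of the low copies are uncertain.

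The ribosomal protein genes together took 3.145% and 2.843% of all counts in the untreated libraries of experiments 1 and 2. Their share was 3.027% and 2.735% at 0.03 nM and 1 h, 2.893% and 3.399% at 0.03 nM and 2 h, 2.432% and 2.427% at 10 nM and 1 h, and 2.643% and 2.362% at 10 nM and 2 h. All 4 libraries at 10 nM lay below all 6 others. The summed level of the set after TMM scaling, which sets each library so that most genes do not shift, gave another order. It was 27472 and 24663 CPM in untreated cells, 26438 and 24032 at 0.03 nM and 1 h, 26277 and 31173 at 0.03 nM and 2 h, 27495 and 27045 at 10 nM and 1 h, and 33554 and 30498 at 10 nM and 2 h. Here both 10 nM 2 h libraries lay above both untreated libraries, and so did the experiment 2 library at 0.03 nM and 2 h and, by a small margin, the experiment 1 library at 10 nM and 1 h.

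**Figure D2:**
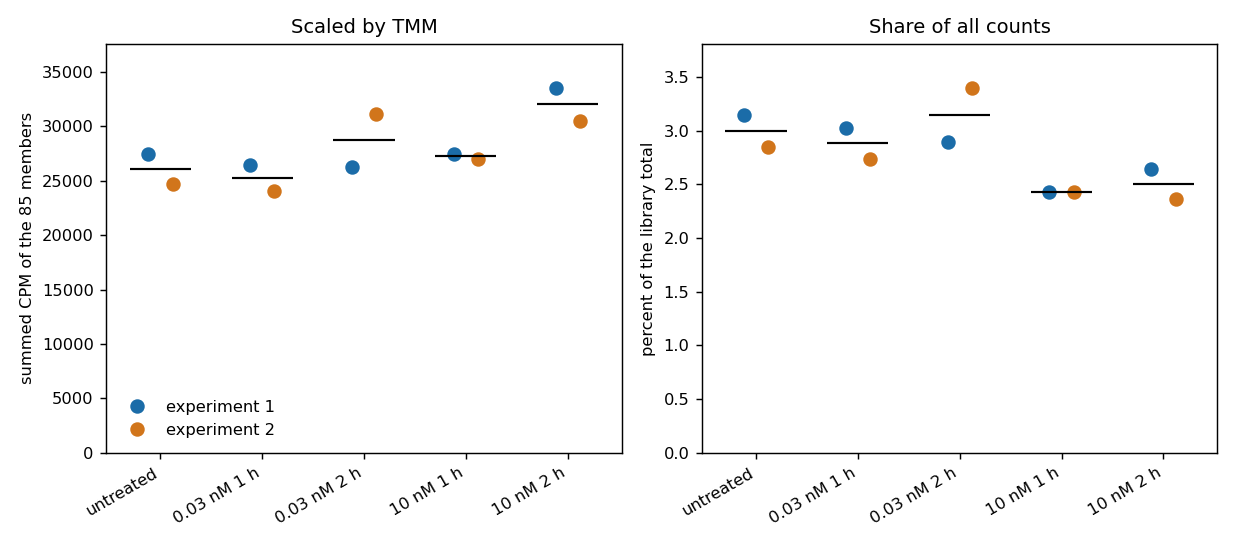
Summed level of the 85 genes in each library, as TMM-scaled CPM (left) and as percent of the library's counts (right), with points colored by experiment and bars at the group mean. At 10 nM and 2 h the scaled level reaches 33554 and 30498 CPM, above the untreated 27472 and 24663, while the share of counts, 2.643% and 2.362%, is below the untreated 3.145% and 2.843%.

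The sign of the set's median difference at 10 nM against untreated cells thus depended on the scaling. TMM factors were 1.09 to 1.153 in the untreated and 0.03 nM libraries and 0.7746 to 0.8973 at 10 nM. With scaling by library totals, the median log2 fold change of all 12918 genes at 10 nM and 2 h moved from -0.03 to -0.586, and that of the ribosomal protein genes from 0.295 to -0.26. Measured from the median gene the set was 0.325 higher under TMM and 0.326 higher under totals. Either scaling applies 1 factor to a whole library, so this distance had to be nearly equal and the match is no separate support. At 10 nM and 1 h this distance was 0.085 under either scaling, at 0.03 nM and 2 h 0.144, and at 0.03 nM and 1 h -0.048 and -0.047. Fold changes below are on the TMM scale unless stated, and a gene is said to rise or fall only where edgeR's quasi-likelihood test gave a Benjamini-Hochberg adjusted p under 0.05 over all tested genes.

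After 2 h at 10 nM, 55 of 83 ribosomal protein genes rose against untreated cells and 0 fell, whereas 57 fell and 0 rose with scaling by library totals. Of all tested genes 28.6% rose and 30.1% fell under TMM, and 14.7% rose and 61.1% fell under totals, so rises made up 48.8% and 19.4% of all calls. The 55 genes were 32 of 50 in the large subunit and 23 of 33 in the small. The median log2 fold change was 0.295 (0.296 for the large and 0.295 for the small subunit), with a range of 0.01 to 0.77, against -0.03 for all tested genes. It was 0.284 within experiment 1 and 0.3 within experiment 2. In 76 of the 83 genes both 10 nM 2 h libraries lay above both untreated libraries, an arrangement found in 38.4% of all tested genes.

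The number of calls rested on individual libraries, while the median did not change sign under any omission. Without the untreated library of experiment 2, 5 genes were called (Rpl24, Rps13, Rpl13, Rps27 and Rpl7) with a median of 0.203. Without the experiment 1 library at 10 nM and 2 h, 6 were called (Rpl24, Rps13, Rps27, Rpl7, Rps25 and Rpl8) with a median of 0.219. Without any other library the count lay between 48 and 69.

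**Figure D3:**
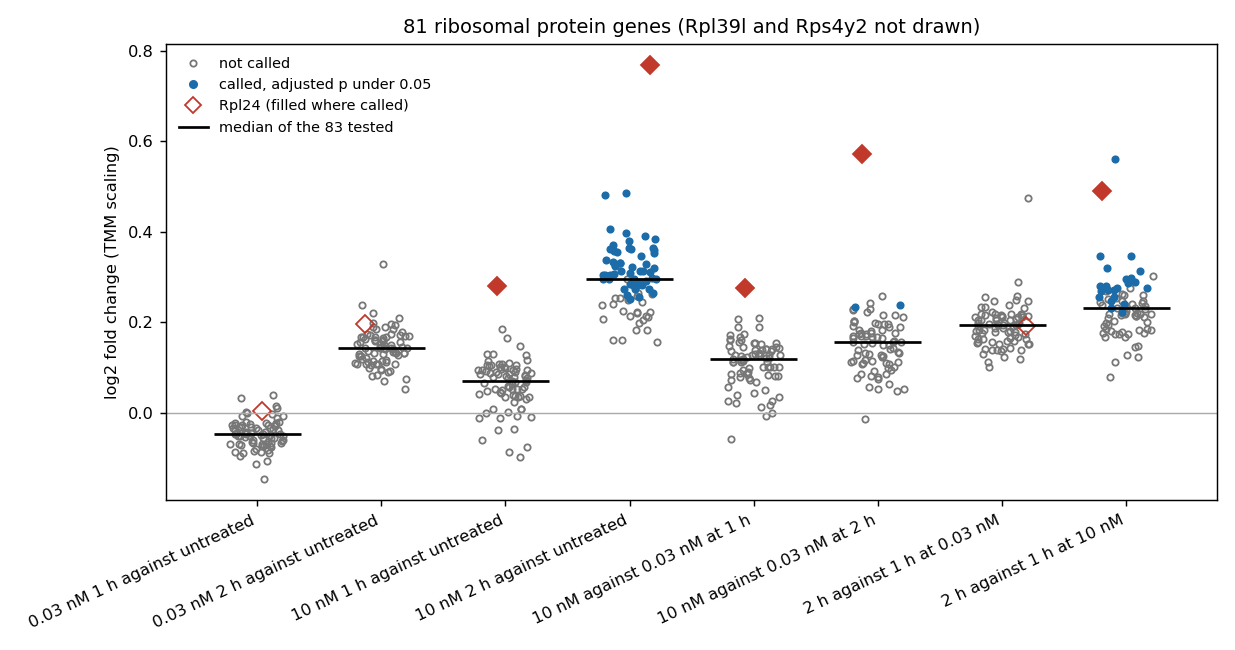
Log2 fold change (TMM scaling) of 81 ribosomal protein genes in 8 comparisons, with filled points where edgeR's adjusted p was under 0.05 and a bar at the median of the 83 tested genes. The median reaches 0.295 at 10 nM and 2 h against untreated cells and Rpl24 stands above the others at 0.77, but with scaling by library totals the medians at 10 nM against untreated turn negative (-0.297 at 1 h and -0.26 at 2 h), as do those at 10 nM against 0.03 nM (-0.238 and -0.331).

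Rpl24, a large subunit protein that forms a bridge to the small subunit, changed most. In experiment 1 its level was 206 CPM in untreated cells, 212 and 210 at 0.03 nM after 1 h and 2 h, and 240 and 358 at 10 nM after 1 h and 2 h. In experiment 2 the corresponding levels were 196, 191, 250, 248 and 327 CPM. Both 10 nM 2 h libraries lay above all others, and at 10 nM and 1 h both lay above both untreated libraries. At 10 nM and 2 h the log2 fold change was 0.77 ± 0.10 (SE), 1.71-fold, with an edgeR adjusted p of 2.23e-05. It was 0.798 within experiment 1 and 0.74 within experiment 2, and it stayed called when any 1 of the 10 libraries was left out, with adjusted p between 3.68e-07 and 0.000695. Scaled by library totals it was 0.21 with an adjusted p of 0.0593.

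Rpl24 also differed in its share of the set's own counts, a measure that needs no scaling of the library. It took 0.751% and 0.793% of the set's counts in the untreated libraries of experiments 1 and 2, between 0.794% and 0.802% in the 4 libraries at 0.03 nM, 0.873% and 0.915% at 10 nM and 1 h, and 1.07% in both libraries at 10 nM and 2 h. The mean share at 10 nM and 2 h was 1.39 times the untreated one, and all 4 libraries at 10 nM lay above the 6 others. When libraries were scaled by the summed counts of the 85 genes, Rpl24 was the only member called against untreated cells at 10 nM and 2 h, at 0.47 ± 0.10 with an edgeR adjusted p of 0.00243, while 16.6% of all tested genes rose and 40.3% fell. The same held for 10 nM against 0.03 nM at 2 h, at 0.42 with an adjusted p of 0.0064, against 16.4% of all tested genes higher. At 10 nM and 1 h against untreated the difference on this scale was 0.21 with an adjusted p of 0.154.

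The Rpl24 gene model in the count table lies on chromosome 16 from 55966388 to 55971550 (mm9, plus strand) with 6 exons and 679 exonic bases, and it shared no exonic base with another counted gene. Of its neighbors, Zbtb11, a zinc finger gene on the same strand that begins 2367 bases beyond its end, rose by 0.46 at 10 nM and 2 h (adjusted p 0.00395). Zbtb11 stood at 20.1 and 22.8 CPM in untreated cells, 41.5 and 39.8 at 10 nM and 1 h, and 27.9 and 31.1 at 10 nM and 2 h, so its highest libraries were those at 1 h and those of Rpl24 at 2 h. 2310061J03Rik, on the opposite strand, did not pass the test (-0.33, adjusted p 0.278), Cep97 fell by 2.78 (adjusted p 2.23e-06), and Pcnp rose by 0.42 (adjusted p 0.000444), all by edgeR's test.

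Rps13, a small subunit protein that contributes to the bridges between the subunits, followed. Its levels in experiment 1 were 200 CPM in untreated cells, 199 and 205 at 0.03 nM, and 214 and 281 at 10 nM after 1 h and 2 h. In experiment 2 they were 177, 187, 240, 215 and 246 CPM. Both 10 nM 2 h libraries lay above all others, although the experiment 2 library at 0.03 nM and 2 h, at 240 CPM, was close to the lower of them. The log2 fold change at 10 nM and 2 h was 0.48 ± 0.10 (edgeR adjusted p 0.00121), and its share of the set's counts went from 0.724% to 0.822%, a ratio of 1.14. Measured against the summed counts of the set it was 0.18 with an adjusted p of 0.141.

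The other genes named by smallest p at 10 nM and 2 h differed less from the body of the set. Rps27, a zinc finger protein of the small subunit, stood at 186 and 169 CPM in untreated cells and at 246 and 224 CPM at 10 nM and 2 h, a change of 0.41 ± 0.09 (edgeR adjusted p 0.0018). Its 2 treated libraries lay above both untreated ones. Rpl7 went from 431 and 405 to 545 and 517 CPM (0.35 ± 0.08, adjusted p 0.00343), Rpl8 from 367 and 335 to 465 and 439 CPM (0.37 ± 0.09, adjusted p 0.00443), and Rps25 from 250 and 227 to 312 and 300 CPM (0.36 ± 0.09, adjusted p 0.00509). The groups did not overlap for any of these 3. For these and Rps27 the choice by small p in this comparison made that likely, so it is no further support. The locus of Rps27 overlaps the model Gm9846, to which 99.5% as many counts were assigned, so reads there were counted for both names, and the opposite-strand gene Ccdc84 could account for at most 3.17% of the counts of Rps25.

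Among proteins of the stalk and the subunit surfaces, Rplp0, the stalk base, rose from 775 ± 51.7 to 958 ± 46.6 CPM (SD, n = 2; log2 0.31 ± 0.09, edgeR adjusted p 0.0149). Rplp1 rose by 0.30 ± 0.10 (adjusted p 0.0254) and Rplp2 by 0.33 ± 0.11 (adjusted p 0.0171). Rpsa, also known as the laminin receptor, was 482 ± 38.4 in untreated cells and 574 ± 43.4 CPM at 10 nM and 2 h and did not pass (0.25 ± 0.11, adjusted p 0.0676). Rps6, the substrate of the S6 kinases, rose by 0.36 ± 0.10 (adjusted p 0.00616), Rps19, which is mutated in Diamond-Blackfan anemia, by 0.32 ± 0.10 (adjusted p 0.0148), and Rps27a, made as a fusion with ubiquitin, by 0.30 ± 0.10 (adjusted p 0.0228). Rps3, which lies at the mRNA entry channel, did not pass (0.22 ± 0.11, adjusted p 0.0962). All 8 had log2 values below 0 when scaled by library totals, between -0.33 and -0.19.

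Rpl5 and Rpl11 bind the p53 ligase Mdm2 when ribosome assembly is disturbed. Rpl5 rose from 466 ± 31.9 to 589 ± 37.1 CPM (0.34 ± 0.09, edgeR adjusted p 0.00668), and Rpl11 was 374 ± 41.2 and 434 ± 43.4 CPM (0.21 ± 0.11, adjusted p 0.123). Rpl13a, which leaves the ribosome to silence inflammatory mRNAs in interferon-treated myeloid cells, was 501 ± 39.6 and 558 ± 53.7 CPM (0.16 ± 0.12, adjusted p 0.281). Rpl41, the smallest ribosomal protein, was 422 ± 48.8 and 472 ± 55.2 CPM (0.16 ± 0.11, adjusted p 0.256). Rpl5, Rpl11, Rpl13a and Rpl41 had values from -0.40 to -0.22 with scaling by library totals.

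Within the set, the proportions of most genes moved little. Between untreated cells and 10 nM and 2 h, 78 of the 83 tested genes kept a mean share of the set's counts within 0.9 to 1.1 times its untreated value. For 21 genes both treated libraries had a higher share than both untreated ones, and for 18 both had a lower share. Measured in the same way against the set's counts, 23.2% of all tested genes lay above and 56.2% below. Rpl13a went from 1.92% in both untreated libraries to 1.78% and 1.71% (ratio 0.907), and Rpl41 from 1.66% and 1.57% to 1.52% and 1.42% (ratio 0.909). The groups did not overlap for either gene, and neither was called when libraries were scaled by the set (edgeR adjusted p 0.252 and 0.274). Over all 10 libraries the highest share of a gene was a median of 1.09 times its lowest, among the 81 genes with at least 0.05% in each library.

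**Figure D4:**
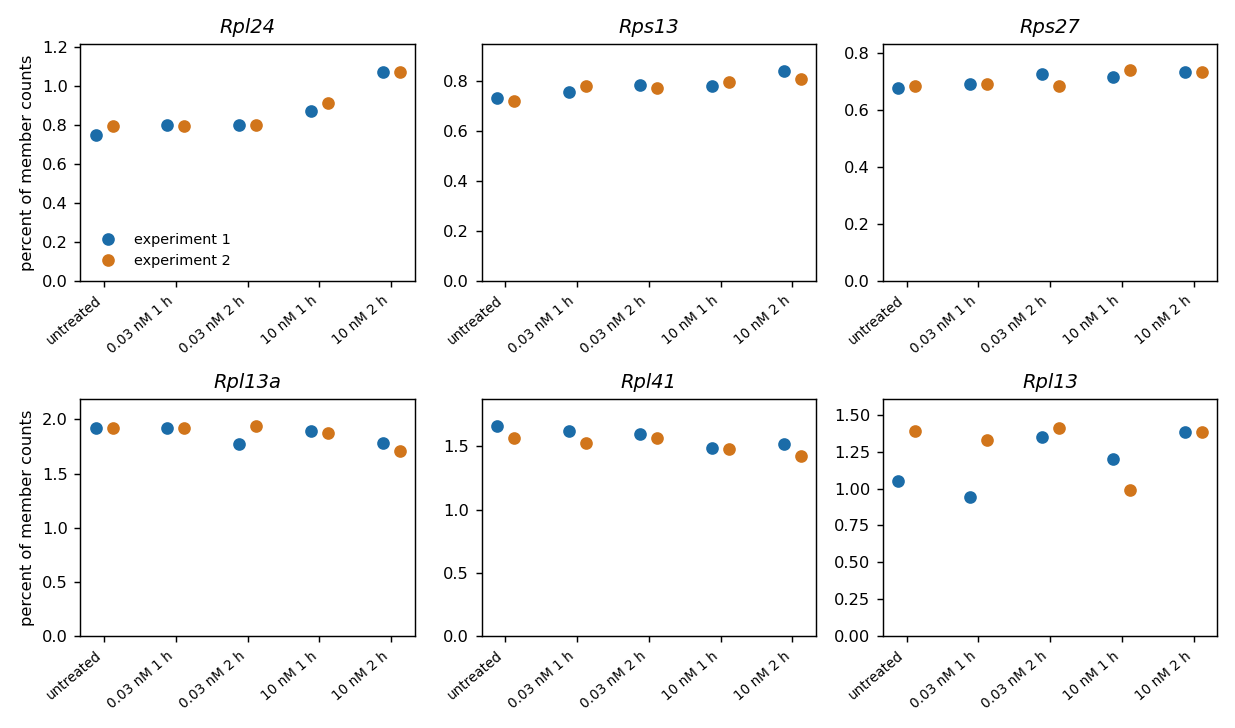
Share of the counts of all 85 ribosomal protein genes taken by Rpl24, Rps13, Rps27, Rpl13a, Rpl41 and Rpl13 in each library, in percent, with points colored by experiment and the axis starting at 0. Rpl24 goes from 0.751% and 0.793% in untreated cells to 1.07% at 10 nM and 2 h in both experiments, and Rpl13a from 1.92% to 1.78% and 1.71%.

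Among these 81 genes Rpl13 had the widest range of shares, 1.492 times from lowest to highest, but not by group. It took 1.05% and 1.39% in the untreated libraries of experiments 1 and 2, 0.945% and 1.33% at 0.03 nM and 1 h, 1.35% and 1.41% at 0.03 nM and 2 h, 1.2% and 0.992% at 10 nM and 1 h, and 1.38% in both at 10 nM and 2 h. Libraries of 1 group differed as much as the groups did. Rpl13 rose by 0.49 ± 0.16 at 10 nM and 2 h (edgeR adjusted p 0.0227), 0.684 in experiment 1 and 0.294 in experiment 2, but was -0.07 (adjusted p 0.686) when scaled by library totals. Rps2, with shares from 1.64% to 2.09%, had the third widest range, and in untreated cells the library of experiment 2 was again the higher of the pair.

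After 2 h at 10 nM, 3 paralogs rose. Rps27l rose by 0.30 ± 0.10 (edgeR adjusted p 0.0237), Rpl36al by 0.27 ± 0.10 (adjusted p 0.0328) and Rpl22l1 by 0.33 ± 0.13 (adjusted p 0.0442). Rpl7l1 had 0.18 ± 0.08 (adjusted p 0.0691), Rpl22 0.21 ± 0.11 (adjusted p 0.116), Rpl36a 0.22 ± 0.11 (adjusted p 0.107), Rpl39 0.24 ± 0.10 (adjusted p 0.0672) and Rpl3 0.18 ± 0.10 (adjusted p 0.139), none of which passed. Rpl10 rose by 0.26 ± 0.08 (adjusted p 0.0191) and Rps4x by 0.29 ± 0.09 (adjusted p 0.0183). These 10 genes had values between -0.37 and -0.22 when scaled by library totals. Rpl39l, with 0 to 15 counts a library, and Rps4y2 could not be measured with useful precision (0.55 ± 0.80 and 0.01 ± 0.39).

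After 1 h at 10 nM, Rpl24 was the only ribosomal protein gene called against untreated cells (0.28 ± 0.09, edgeR adjusted p 0.037), at a time when 18.5% of all tested genes rose and 18.3% fell. Its log2 difference was 0.22 within experiment 1 and 0.34 within experiment 2, and -0.09 with scaling by library totals. Leaving out either untreated library or either 10 nM 1 h library ended the call (adjusted p 0.0925 to 0.192). The median of the 83 genes was 0.069, 0.001 within experiment 1 and 0.141 within experiment 2, and -0.016 without the untreated library of experiment 2. In 23 genes both treated libraries lay above both untreated ones, against 34.6% of all tested genes. Scaling by library totals gave 72 falls and 0 rises among the 83 genes, while 52.3% of all genes fell and 9.91% rose, so rises were 50.3% of all calls under TMM and 15.9% under totals.

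At 0.03 nM and 1 h, 0 of the 83 genes were called by edgeR and 0 had an unadjusted p under 0.05, and DESeq2 also called 0, with 1.53% of all tested genes called by edgeR. The median was -0.048, -0.06 within experiment 1 and -0.036 within experiment 2, but 0.041 without the untreated library of experiment 1 and 0.023 without the experiment 2 library at 0.03 nM and 1 h. In 2 genes both treated libraries lay below both untreated ones, against 20.4% of all tested genes.

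At 0.03 nM and 2 h, 0 genes were called by edgeR and 0 by DESeq2, 3 had an unadjusted p under 0.05 (Rpl7l1, Rps13 and Rps27, chosen for naming after their values were seen), and 9.82% of all tested genes were called. The median was 0.143, but -0.064 within experiment 1 and 0.343 within experiment 2. In 9 genes both treated libraries lay above both untreated ones, against 23.6% of all tested genes. Leaving out the experiment 1 library at 0.03 nM and 2 h gave 38 rises and a median of 0.265, in a fit that called 1452 of all genes higher and 1676 lower in place of 833 and 435, and leaving out that of experiment 2 gave 0 and a median of 0.03. With scaling by library totals 0 were called and the median was 0.075, and rises were 48.4% of all calls in place of 65.7%.

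The 2 libraries of that group differed with the length of the gene. Over the other 12835 tested genes, which share these libraries and their depth, the rank correlation of exonic length with the log2 difference of experiment 2 minus experiment 1 was -0.474 at 0.03 nM and 2 h, and 0.203, 0.071, -0.001 and 0.209 in untreated cells, at 0.03 nM and 1 h, at 10 nM and 1 h, and at 10 nM and 2 h. The ribosomal protein genes, which are short, had a median difference of 0.247 at 0.03 nM and 2 h, with 81 of 83 above 0, and of -0.162, -0.153, -0.018 and -0.14 in the other groups in the same order. With an offset for exonic length in each library, the median at 0.03 nM and 2 h went from 0.143 to 0.04 with 0 calls. The same offset gave 64 rises at 10 nM and 2 h, against 33.7% of all tested genes, with a median of 0.229 against 0.039 for all genes. At 10 nM and 1 h it gave 35 rises, against 22.8% of all tested genes, with a median of 0.155 against 0.021.

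**Figure D5:**
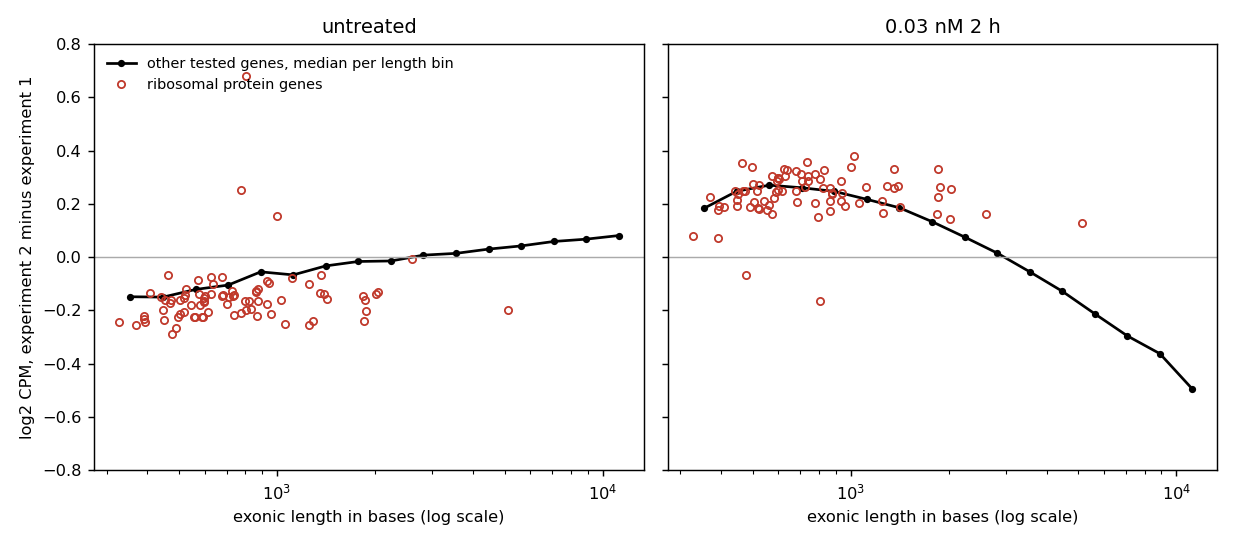
Log2 CPM of experiment 2 minus experiment 1 against exonic length (log scale) in untreated cells and at 0.03 nM and 2 h, for the ribosomal protein genes (circles) and as the median of the other tested genes in bins of length (line). The ribosomal protein genes have a median of -0.162 on the left and 0.247 on the right, where long genes fall below 0, and Rps4y2 (0.93 and 1.1) lies outside the axes.

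Between the doses, 10 nM against 0.03 nM at 1 h, Rpl24 was the only gene called (0.28 ± 0.09, edgeR adjusted p 0.041), with 18% of all tested genes higher and 17.3% lower. The call ended without any 1 of 7 libraries, both libraries of the untreated, 10 nM 1 h and 10 nM 2 h groups and the experiment 2 library at 0.03 nM and 1 h (adjusted p 0.0518 to 0.238). Without the experiment 1 or experiment 2 library at 0.03 nM and 2 h, 5 and 2 genes were called. The median was 0.12, with 0.057 and 0.173 in the experiments. In 50 genes both 10 nM libraries lay above both 0.03 nM libraries, against 34.8% of all tested genes. With scaling by library totals 36 genes were lower and 0 higher, with a median of -0.238, against 51% of all genes lower, and with the offset for length 48 were higher, against 22.7% of all genes.

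At 2 h, 3 genes were higher at 10 nM than at 0.03 nM and 0 lower, with 25.6% of all tested genes higher and 27.2% lower. These were Rpl24 (0.57 ± 0.10, edgeR adjusted p 0.000293), Rpl4 (0.24 ± 0.09, adjusted p 0.0424) and Rpl5 (0.23 ± 0.09, adjusted p 0.0471). Within experiments 1 and 2 Rpl24 had 0.769 and 0.385, Rpl4 0.38 and 0.0988, and Rpl5 0.369 and 0.0977. The median of the set was 0.156, with 0.35 in experiment 1 and -0.034 in experiment 2, so the experiments gave opposite signs. In 26 genes both 10 nM libraries lay above both 0.03 nM libraries, against 34% of all tested genes. Leaving out the experiment 2 library at 0.03 nM and 2 h gave 41 rises, and leaving out that of experiment 1, either untreated library, either 10 nM 1 h library or the experiment 1 library at 10 nM and 2 h gave 1, Rpl24. With scaling by library totals 78 genes were lower and 0 higher (median -0.331), against 59.1% of all genes lower, and with the offset for length 55 were higher, against 31.4%.

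From 1 h to 2 h at 10 nM, 23 genes rose and 0 fell, 13 of the large and 10 of the small subunit, while 21.3% of all tested genes rose and 21.5% fell. The median was 0.231, with 0.298 and 0.159 in the experiments. The 6 of smallest p were Rpl24 (0.49 ± 0.09, edgeR adjusted p 0.00136), Rpl13 (0.56 ± 0.16, adjusted p 0.0163), Rps2 (0.35 ± 0.11, adjusted p 0.0199), Rps20 (0.35 ± 0.11, adjusted p 0.0215), Rps13 (0.30 ± 0.10, adjusted p 0.03) and Rps25 (0.27 ± 0.09, adjusted p 0.032). Rps20, a small subunit protein of the head domain, went from 245 and 243 to 329 and 292 CPM. Rps2, at the mRNA entry channel, went from 474 and 442 to 571 and 593 CPM. In both genes the 2 h libraries lay above the 1 h libraries, which the choice by small p in this comparison made likely. With scaling by library totals only Rpl24 was called (0.30, adjusted p 0.0221), against 13.6% of all tested genes, and the median was 0.042 against -0.192 for all genes. The offset for length gave 12 rises among the 83 genes, a smaller share than the 3303 rises among all 12918 tested genes. Its median was 0.086 against 0.029 for all genes. The count was 1 to 2 without any 1 of the 10 nM 1 h libraries or the experiment 1 library at 10 nM and 2 h, 10 without either untreated library, 12 without the experiment 2 library at 10 nM and 2 h, 15 without the experiment 1 library at 0.03 nM and 1 h, and 51 and 50 without the experiment 1 or experiment 2 library at 0.03 nM and 2 h.

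From 1 h to 2 h at 0.03 nM, 0 genes were called by edgeR, 20 had an unadjusted p under 0.05, and DESeq2 called 1 (Rpl13), with 3.51% of all tested genes rising and 1.59% falling by edgeR. The median was 0.193, but -0.012 in experiment 1 and 0.38 in experiment 2. Leaving out the experiment 1 library at 0.03 nM and 2 h gave 50 rises, in a fit that called 1340 of all genes higher and 1493 lower in place of 454 and 206. The difference between the doses in the change from 1 h to 2 h was called in 0 genes by edgeR and 0 by DESeq2, with 1 at an unadjusted p under 0.05, against 22% of all tested genes. Its median over the set was 0.045, with opposite signs in the experiments, 0.298 in experiment 1 and -0.211 in experiment 2. For Rpl24 it was 0.30 ± 0.13 (edgeR adjusted p 0.146), 0.59 in experiment 1 and 0.00963 in experiment 2. Without the experiment 2 library at 0.03 nM and 2 h, and with the offset for length, Rpl24 was called (0.40, adjusted p 0.0135, and 0.26, adjusted p 0.0238).

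Other genes of the translation machinery were followed at 10 nM and 2 h. Among further proteins made with or bound to the ribosome, Fau, a fusion that carries a small subunit protein, rose by 0.35 ± 0.11 (edgeR adjusted p 0.0156), and Gnb2l1, the scaffold Rack1, rose by 0.36 ± 0.10 (adjusted p 0.00768). Scaling by library totals gave 0 rises and 1 fall in this list of 3, with a median of -0.201. Of 21 translation factors and other proteins of the TOP class, 15 rose and 1 fell, with a median of 0.328, beside 28.6% and 30.1% of all tested genes. With totals 2 rose and 12 fell, beside 14.7% and 61.1% of all tested genes. The 3 of smallest p were Hnrnpa1, an mRNA-binding protein (0.85 ± 0.08, adjusted p 1.38e-06), Pabpc1, the poly(A)-binding protein (0.75 ± 0.08, adjusted p 4.27e-06), and Btf3 (0.68 ± 0.09, adjusted p 2.63e-05). Of 16 regulators of ribosomal protein mRNA or its transcription, 7 rose and 3 fell under TMM and 5 rose and 9 fell under totals, to be read beside the same shares of all genes. Larp1, which binds the TOP motif, rose by 2.37 ± 0.09 (adjusted p 7.87e-10), Myc by 2.20 ± 0.17 (adjusted p 6.27e-07) and Mdm2 by 1.19 ± 0.10 (adjusted p 5.5e-07). At 10 nM and 1 h Larp1 was 0.66 ± 0.09 and Myc 4.14 ± 0.17 above untreated cells (edgeR adjusted p 7.3e-05 and 8.74e-09). Myc also rose at 0.03 nM, by 1.06 ± 0.17 after 1 h and 1.92 ± 0.17 after 2 h (edgeR adjusted p 0.00762 and 2.17e-05).

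Genes of the mitochondrial ribosome and of oxidative phosphorylation were set beside the cytosolic ribosome. Of 76 mitochondrial ribosomal protein genes, 8 rose and 25 fell at 10 nM and 2 h, with a median of -0.078, beside 28.6% and 30.1% of all tested genes. With totals 2 rose and 66 fell, beside 14.7% and 61.1%. After 1 h 2 rose and 22 fell, with a median of -0.211, beside 18.5% and 18.3% of all tested genes. Of 72 tested subunits of oxidative phosphorylation, 19 rose and 1 fell at 10 nM and 2 h, with a median of 0.129, and 0 rose and 51 fell under totals. The cytosolic set's median of 0.295 was above both. Under totals the medians were -0.26 against -0.634 and -0.426, an order that this change of scale could hardly alter. The difference between the lists was not tested.

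The promoter letters were set against the calls at 10 nM and 2 h for the genes with both. A C or T run of at least 8 was present for 34 of 40 called genes (85%) and 18 of 22 genes that were not called (81.8%). CCGGAAG was present for 18 (45%) and 8 (36.4%). These shares are descriptions of the genes found in the table.

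Some genes share exonic bases with other models. Rpl26 and Gm15772 were given 124003 counts each, and Rpl30 with Gm12191 and Rpl34 with Rpl34-ps1 had nearly the same counts (99.6% and 98.9%), so reads in the overlap were counted for both names. Of genes on the opposite strand, Tbc1d8 could account for at most 20.2% of the counts of Rpl31 and Fam69a for at most 6.54% of those of Rpl5. Tbc1d8 and Fam69a had log2 values of -0.66 and -0.98 at 10 nM and 2 h, beside 0.21 for Rpl31 and 0.34 for Rpl5, which were -0.35 and -0.22 when scaled by library totals.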

How the data were processed

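RNA counts per gene of 10 libraries were used as the authors deposited them, as whole numbers with exonic lengths and positions beside them. The submitters' processing notes name the build mm9 and the tools featureCounts 1.4.5-p1, TopHat2 2.0.11, bcl2fastq 2.15.0.4 and DESeq2. The sources used here do not give the role or settings of each tool, including strand and the treatment of reads with several matches. A second deposited table of transformed values was not used here.

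Counts were tested with edgeR 4.0.16 (R 4.3.3, limma 3.58.1) in a quasi-likelihood fit of all 10 libraries and 5 groups, after its filter on low counts (12918 of 23284 genes kept) and TMM scaling, with Benjamini-Hochberg adjustment over all tested genes and a threshold of 0.05. The fit left 5 residual degrees of freedom. CPM and RPKM were computed on TMM-scaled totals. The members and gene lists were chosen with earlier results of these data known. Named members were the called ones where a comparison had at most 6, otherwise the 6 of smallest p in each direction, the 5 of highest and of lowest untreated RPKM, the paralogs with their relatives, 12 members of known special roles, and the untested. Up to 3 called genes of smallest p were named in other lists. Genes that share exons with another and neighbors of Rpl24 were named after their values were seen. Some genes of the set and lists are counted but not reported by name here.

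Samples were grouped by dose and time from the labels, which also number the experiments 1 and 2. Deviations from the group means correlated above 0.1 for same-numbered libraries in 7 of 10 pairs of groups (-0.106 to 0.472, median 0.272, 10300 genes). Over the tested ribosomal protein genes alone the correlations ran from -0.265 (0.03 nM 2 h with 10 nM 1 h) to 0.9 (untreated with 0.03 nM 1 h). They were 0.761 for untreated with 10 nM 2 h and 0.814 between the 10 nM groups. The experiment number was used as a block in an alternative. Other alternatives were DESeq2 1.42.0, its size factors in edgeR, scaling by library totals and no filter. Further ones were an offset for exonic length, only the groups compared, and each library left out. The offset was a lowess on the logarithm of length over non-members, with a span of 0.3. It smoothed each library's log2 CPM (prior count of 1) minus the mean of all libraries. Log2 CPM of single libraries used elsewhere had a prior count of 2. Scaling by the members' summed counts was added after seeing the data. The fit was tested on simulated data.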

Additional observations from a re-analysis of the deposited data

How the results depend on the processing

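The counts of ribosomal protein genes called depended on scaling, gene length and single libraries. In the order 10 nM 1 h and 2 h against untreated, 10 nM against 0.03 nM at 1 h and 2 h, and 2 h against 1 h at 10 nM, edgeR called 1, 55, 1, 3 and 23, all higher. Scaling by library totals gave 72, 57, 36 and 78 lower and 1 higher, and scaling by the members' summed counts 0, 1, 0, 1 and 0. An offset for exonic length gave 35, 64, 48, 55 and 12, and fits of only the groups compared gave 3, 70, 6, 1 and 59. The fit that gave 59 called 3154 of all genes higher and 3330 lower, in place of 2747 and 2779. At 10 nM against 0.03 nM and 2 h, DESeq2 and its size factors in edgeR gave 11 each, and DESeq2 gave 36 from 1 h to 2 h at 10 nM and 1 at 0.03 nM. Of all genes DESeq2 called 3420 higher and 3113 lower between the doses at 2 h, in place of 3313 and 3514. From 1 h to 2 h at 10 nM it called 2750 higher and 2553 lower, in place of 2747 and 2779. The offset gave 1 from 1 h to 2 h at 0.03 nM and 1 for the interaction of dose and time.

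With the experiment as replicate block, the counts were 1, 60, 1, 4 and 20, and the block moved no count by more than 1.5 times. Rpl24 at 10 nM and 2 h was called with it. The block together with the offset for length gave 47, 72, 59, 60 and 13, and 1 each at 0.03 nM and 2 h, from 1 h to 2 h at 0.03 nM and for the interaction.

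Leaving out each library in turn gave 0 to 1, 5 to 69, 0 to 5, 1 to 41 and 1 to 51 in the same order, 0 to 38 at 0.03 nM and 2 h, 0 to 50 from 1 h to 2 h at 0.03 nM, 0 to 1 for the interaction and 0 throughout at 0.03 nM and 1 h. Without the experiment 2 library at 10 nM and 1 h the 1 call at 10 nM and 1 h was Rpl39l, lower, a gene with 0 counts in the other. A group left with 1 library is assumed to vary like the others. The cause of these changes was not tested.

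Under scaling by library totals, these named genes had values below 0 at 10 nM and 2 h: Rps13 -0.07, Rps27 -0.15, Rpl7 -0.21, Rpl8 -0.19, Rps25 -0.20, Rplp0 -0.25, Rplp1 -0.26, Rplp2 -0.22, Rps6 -0.19, Rps19 -0.23, Rps27a -0.26, Rpl5 -0.22, Rpl10 -0.29, Rpl22l1 -0.22, Rpl36al -0.28, Rps27l -0.25, Rps4x -0.27, Rpsa -0.30, Rps3 -0.33, Rpl11 -0.34, Rpl13a -0.40, Rpl41 -0.39, Rpl3 -0.37, Rpl7l1 -0.37, Rpl22 -0.34, Rpl36a -0.33, Rpl39 -0.32, Rpl39l -0.01, Rps4y2 -0.55, and of genes named in other comparisons or for overlaps, Rpl13 -0.07 and Rpl31 -0.35. Rpl24 was -0.09 at 10 nM and 1 h and -0.08 against 0.03 nM at 1 h, and Rpl4 and Rpl5 were -0.25 each against 0.03 nM at 2 h. Scaled by the members' sum, Rplp1 and Rps27a were 0.00, Rpl10 and Rpl36al -0.03 and Rps4x -0.01 at 10 nM and 2 h. Over all alternatives, values of named genes kept their side of the threshold 596 times and lost the call 113 times. They gained a call 34 times and reversed 36 times. A reversal was counted only where the sign changed and at least 1 of the 2 fits made a call. Changes of sign without a call in either fit, as for Rpl39l and Rps4y2 under totals, are among the 596. Without Rn45s the share of counts moved by less than 1 SD except at 10 nM and 1 h, where it went from 2.43% to 2.45% (SD 0.0036). Low counts limited Rpl39l and Rpl3l.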
